A study of Mus musculus with 4 samples.

Results

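The insulin-like growth factor (IGF) family was examined in muscle stem cells of mice: the ligands Igf1 and Igf2, the receptors Igf1r and Igf2r, and the binding proteins Igfbp2, Igfbp3, Igfbp4, Igfbp5, Igfbp6 and Igfbp7. These 10 genes were chosen by symbol, and all 10 were among the 11603 genes with values. The cells came from hindlimb muscle of male C57BL/6 mice aged 4 to 5 months and were sorted as VCAM1+/CD31-/CD45-/Sca1-. Of the 4 libraries, 2 were controls and 2 carried the label of a conditional deletion of Hr (Hairless), the gene of a nuclear corepressor; the latter are called knockout here. All libraries shared strain, sex, age, muscle and sort, and the labelled difference was the Hr genotype. No source used here names the driver of the deletion, the alleles of the controls, or whether the 2 samples of a group were separate animals, so the p-values below measure no more than the spread among these samples, and that spread may be technical.

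IGF1 and IGF2 are secreted growth factors that act through the tyrosine kinase receptor IGF1R, which recruits the insulin receptor substrates and activates PI3K, AKT and mTOR while restraining the FoxO transcription factors. IGF2R, also the cation-independent mannose 6-phosphate receptor, sends lysosomal enzymes to the lysosome and takes IGF2 up for breakdown. The binding proteins hold the ligands outside the cell and are cut by proteases that release them, and Igfbp7 encodes a more distant relative with low affinity for IGFs. In muscle, IGF1 is known as a growth signal for fibres and their precursors, and IGF2 as a factor that differentiating myoblasts make for themselves.

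Values are RPKM (reads divided by exon length and by the library size the authors used), so that levels can be compared between genes, and each gene is given in control 1, control 2, knockout 1 and knockout 2. The libraries held 21757211 to 34101213 reads on the listed genes. The library size the authors used was 85.9% and 92.4% of these reads in the controls and 75.7% and 75.5% in the knockouts. The scaling thus differed between the groups. With the listed reads as the size, the median log2 fold change over all genes moved by -0.20. Hr itself had 9.28, 8.94, 7.15 and 7.90 RPKM. The knockouts were the lower pair, yet Hr RNA remained in both (limma adjusted p = 0.431), and the values are 1 per gene and do not show single exons, so every direction below rests on the sample labels. The sorted cells carried the RNA of muscle stem cell markers, 15 of 15 measured. Summed levels were 4804 to 5687 RPKM in control and 7894 to 8235 RPKM in knockout. Without Sdc4 and Myod1, the 2 most abundant, they were 2589 and 2529 RPKM in the controls and 3152 and 3562 in the knockouts. Of the 15 markers, 7 had both knockout values above both control values, as had 25.0% of all genes. In 1, Itga7, both were below, as in 26.2% of all genes, and the other 7 overlapped, Pax7 among them. Of the antigens sorted against, Ptprc (CD45) did not exceed 0.04 RPKM, Pecam1 (CD31) had 5.51 to 11.9 RPKM, and Ly6a (Sca1) had 47.9 and 49.5 RPKM in the controls and 77.4 and 80.7 in the knockouts.

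Of the 10 genes, 3 had both knockout values below both control values: Igf1, Igfbp3 and Igf2r. Among all genes, 26.2% were separated in this direction. None of the 10 had both knockout values above both control values, against 25.0% of all genes, and in the other 7 the groups overlapped. After Benjamini-Hochberg adjustment over all genes with a threshold of 0.05, limma called 0 of the 10 genes lower and 0 higher, where 0.00862% and 0% of all genes were called. At an unadjusted limma p under 0.05, 2 members (Igf1 and Igfbp3) were lower and 0 were higher, beside 7.69% and 10.3% of all genes. In the authors' deposited table, 1 member, Igfbp3, was lower at an adjusted p under 0.05 and 0 were higher, beside 4.26% and 3.59% of all genes. The median log2 fold change over the 10 genes was -0.14, and over all genes it was -0.01. With 2 libraries against 2, an exact two-sided permutation test of a single gene cannot go below p = 0.333, so the tests across all genes are used here.

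**Figure D1:**
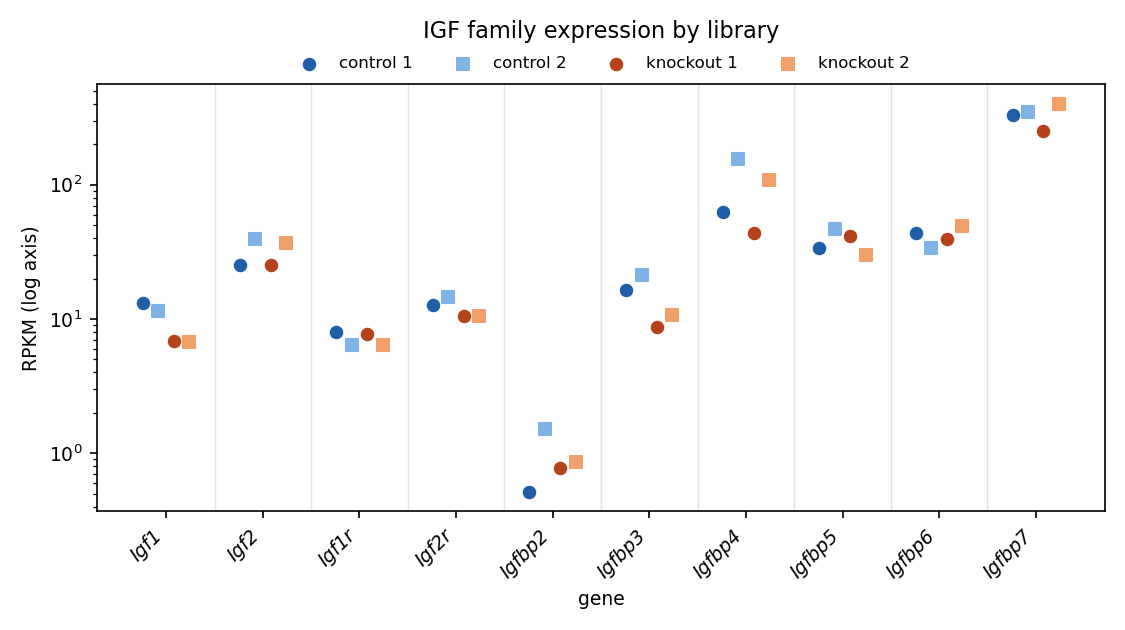
RPKM (log axis) of the 10 IGF family genes in each of the 4 libraries, with circles for the libraries numbered 1 and squares for those numbered 2. Igf1, Igf2r and Igfbp3 lie lower in both knockout libraries, while Igfbp4 and Igf2 separate the libraries by number, with Igfbp4 at 62.3 and 155 RPKM in the controls and 43.7 and 109 in the knockouts.

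The promoter windows of the 3 genes whose groups did not overlap are shown because Hr is known as a corepressor of nuclear receptors, many of which recognise the half-site AGGTCA. Each is the 250 bases before the RefSeq transcription start in GRCm38.p6, 5′ to 3′ on the gene's own strand, and capitals mark AGGTCA or its reverse complement TGACCT. Igf1 lies at chr10:87860861-87861110 on the plus strand, Igfbp3 at chr11:7213924-7214173 on the minus strand and Igf2r at chr17:12769707-12769956 on the minus strand.
Igf1: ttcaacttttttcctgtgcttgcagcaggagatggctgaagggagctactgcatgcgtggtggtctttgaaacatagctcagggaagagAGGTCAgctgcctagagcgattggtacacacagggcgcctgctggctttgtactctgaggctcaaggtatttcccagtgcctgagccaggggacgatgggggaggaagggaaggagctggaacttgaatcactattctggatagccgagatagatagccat
Igfbp3: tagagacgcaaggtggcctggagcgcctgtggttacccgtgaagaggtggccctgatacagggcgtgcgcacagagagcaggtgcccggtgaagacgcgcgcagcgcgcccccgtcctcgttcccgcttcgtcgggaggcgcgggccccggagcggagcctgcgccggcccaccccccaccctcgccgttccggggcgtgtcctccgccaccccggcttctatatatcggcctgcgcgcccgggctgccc
Igf2r: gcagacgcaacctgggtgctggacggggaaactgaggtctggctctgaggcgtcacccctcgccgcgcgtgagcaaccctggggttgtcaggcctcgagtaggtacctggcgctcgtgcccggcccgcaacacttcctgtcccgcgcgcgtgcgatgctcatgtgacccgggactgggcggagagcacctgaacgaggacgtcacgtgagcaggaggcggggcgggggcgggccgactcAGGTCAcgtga

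The half-site began 161 bases before the start in Igf1 and 11 bases before it in Igf2r, and in both it shared 2 bases with an E-box (CANNTG), the short motif read by myogenic factors among others. Searched on both strands, AGGTCA stood in 14.0% of the 32851 windows of all genes. It was found in 4 of the 14 windows of the family, 1 each of Igf1, Igf1r, Igf2 and Igf2r, and in none of the windows of the binding proteins. The TATA box letters (TATAAA), on either strand and at any position, stood in the windows of Igfbp4 and Igfbp6 and in 12.4% of all windows. In Igfbp6 the match was the reverse complement TTTATA. The GC box (GGGCGG) stood in 6 of 14 family windows and 32.7% of all windows. An E-box stood in 9 of 14 family windows and 66.2% of all windows. The window of Igfbp3 was rich in CG pairs, with 32 of them and 73.2% G or C, and that of Igf1 held 5 pairs and 52.8% G or C. The half-site thus stood both in genes whose groups did not overlap (Igf1 and Igf2r) and in genes whose groups overlapped (Igf1r and Igf2). A match describes the letters only, and whether Hr or a nuclear receptor acts at these windows was not tested. The Igf1 row of the deposited table starts upstream of this window, so the annotations behind them place the start differently.

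Igf1, the growth factor made by many mesenchymal cells of muscle (Entrez gene 16000, mm10 chromosome 10, 87858265 to 87937042), had 13.2 and 11.5 RPKM in the controls and 6.82 and 6.76 in the knockouts. The 2 knockout libraries were nearly equal and lay well below both controls. The means were 12.4 ± 1.21 and 6.79 ± 0.0459 RPKM (SD, n = 2), 1.82-fold lower in knockout, from 1099 to 3033 reads per library. The log2 fold change was -0.82 with a standard error of 0.16 and a 95% interval of -1.21 to -0.42. The limma p was 0.00258 before and 0.153 after adjustment, and the authors' deposited table gave an adjusted p of 0.334, so the difference did not pass either test. Without any 1 of the 4 libraries in turn, the log2 fold change of Igf1 lay between -0.91 and -0.72.

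Igf2 (chromosome 7, 142650766 to 142666816), the imprinted ligand expressed from the paternal allele in most tissues, did not follow the genotype. It had 25.2 and 39.2 RPKM in the controls and 25.2 and 36.9 in the knockouts, with libraries numbered 2 higher in both groups. Its log2 fold change was -0.04 with a 95% interval of -0.73 to 0.65 and a limma adjusted p of 0.957. Igf2 exons share 98 bases with the antisense gene Igf2os and 3596 bases with a model on the same strand, Gm49394, in GENCODE vM21, and reads there may not belong to Igf2 alone. The 2 ligands differed in level in the same libraries. Igf1 made up 34.4% and 22.7% of the summed ligand RPKM in control and 21.3% and 15.5% in knockout. Both knockout libraries lay below both controls, but control 2 was closer to knockout 1 than to control 1. The share does not depend on library scaling. It does move with Igf2, which was higher in the libraries numbered 2, and it restates the Igf1 values above.

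Igf1r, the signalling receptor (chromosome 7, 67952859 to 68226780), had 7.93 and 6.41 RPKM in the controls and 7.70 and 6.40 in the knockouts. The groups overlapped almost entirely, with a log2 fold change of -0.02, a 95% interval of -0.49 to 0.45 and a limma adjusted p of 0.970. Igf2r (chromosome 17, 12682406 to 12769664), the imprinted clearance receptor, had 12.6 and 14.6 RPKM in the controls and 10.4 and 10.5 in the knockouts. Both knockout libraries were below both controls, by 1.30-fold between the means. The log2 fold change was -0.36 with a standard error of 0.16, a 95% interval of -0.74 to 0.03 and a limma adjusted p of 0.305, and the authors' deposited adjusted p was 0.288. Igf2r made up 61.4% and 69.4% of the summed receptor RPKM in control and 57.6% and 62.1% in knockout, where the groups overlapped.

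Igfbp3, the main carrier of IGFs in blood and also secreted locally (Entrez gene 16009, chromosome 11, 7206086 to 7213923), had 16.5 and 21.2 RPKM in the controls and 8.67 and 10.7 in the knockouts. The highest knockout value was well below the lowest control value. The means were 18.9 ± 3.29 and 9.70 ± 1.44 RPKM (SD, n = 2), 1.95-fold lower in knockout, from 551 to 1385 reads per library. The log2 fold change was -0.92 with a standard error of 0.19 and a 95% interval of -1.41 to -0.44, the largest among the 10 genes in size. The limma p was 0.00371 before and 0.162 after adjustment, while the authors' deposited table gave an adjusted p of 0.0241. Leaving out each of the 4 libraries in turn gave log2 fold changes of -1.10 to -0.75 for Igfbp3.

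Igfbp4, a binding protein that restrains IGF action until the protease PAPP-A cuts it (chromosome 11, 99041244 to 99054392), varied more between libraries of 1 genotype than between genotypes. It had 62.3 and 155 RPKM in the controls and 43.7 and 109 in the knockouts. The libraries numbered 2 were 2.50-fold and 2.49-fold above those numbered 1 in control and in knockout, and the knockout mean was 1.43-fold below the control mean. The log2 fold change was -0.51 with a 95% interval of -1.91 to 0.89 and a limma adjusted p of 0.669. It was 0.15 without control 2 and 0.14 without knockout 1. Either omission leaves libraries numbered 1 and 2 unequally represented in the groups.

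Igfbp7, which encodes the distant family member secreted by endothelial cells and fibroblasts among others (chromosome 5, 77349240 to 77408041), was the most abundant of the 10 genes. It had 331 and 351 RPKM in the controls and 250 and 403 in the knockouts, with the knockout libraries on either side of both controls. The control mean exceeded that of 98.4% of all genes listed. The limma adjusted p was 0.857, with a 95% interval of -0.72 to 0.51 for the log2 fold change, which was 0.24 without knockout 1. Its exons share 85 bases with Polr2b on the opposite strand.

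Igfbp5 (chromosome 1, 72857932 to 72874884), known to be regulated during myoblast differentiation, had 33.8 and 47.0 RPKM in the controls and 41.7 and 29.9 in the knockouts. Igfbp6, a binding protein with a preference for IGF2 (chromosome 15, 102144362 to 102149511), had 43.4 and 33.7 RPKM in the controls and 39.4 and 48.9 in the knockouts. In both genes the groups overlapped, and the limma adjusted p values were 0.732 and 0.622. Igfbp6 was the one member with a higher mean in knockout, with a log2 fold change of 0.20 and a 95% interval of -0.28 to 0.67, and it had -0.04 after scaling each library by its reads listed. That scaling moved the median over all genes by -0.20.

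Igfbp2 (chromosome 1, 72824503 to 72852474), whose gene lies next to Igfbp5 on the opposite strand, was the lowest of the family. It had 0.514 and 1.5045 RPKM in the controls and 0.776 and 0.857 in the knockouts, from 22, 58, 37 and 26 reads. Exact Poisson 95% intervals, which cover counting error only, were 0.322 to 0.778 RPKM in control 1, 1.14 to 1.94 RPKM in control 2, 0.546 to 1.07 RPKM in knockout 1 and 0.560 to 1.26 RPKM in knockout 2. The 2 controls differed beyond their counting intervals, and both knockout libraries lay between them. For Igfbp2 the difference between genotypes did not exceed the spread between libraries (log2 fold change -0.12, 95% interval -0.92 to 0.69, limma adjusted p = 0.883).

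**Figure D2:**
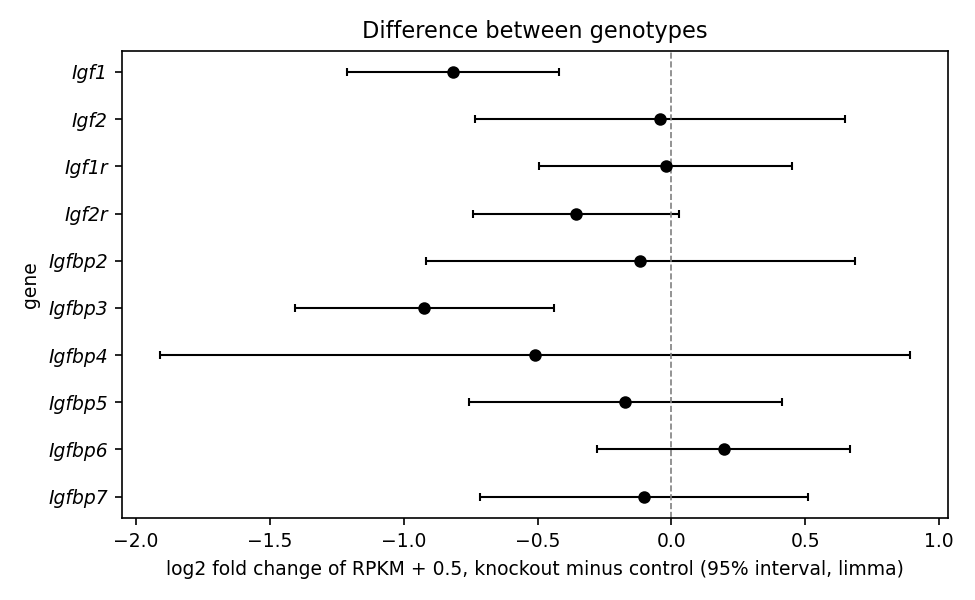
Log2 fold change of RPKM + 0.5, knockout minus control, for the 10 genes, with points for the limma estimate and bars for its unadjusted 95% interval (2 libraries per group). The intervals of Igf1 and Igfbp3 lie below 0 and that of Igf2r reaches 0.03, while Igfbp4 has the widest interval, from -1.91 to 0.89.

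The spread within a group differed widely between members. On the log2 scale the 2 libraries of a group differed by 1.31 in both groups for Igfbp4, by 0.63 in control and 0.54 in knockout for Igf2, and by 0.09 and 0.69 for Igfbp7. For Igf1 the differences were -0.19 and -0.01, smaller in size than its fold change. Igfbp5 and Igfbp6 went opposite ways in the 2 groups, with log2 differences between libraries of 0.47 in control and -0.47 in knockout for Igfbp5 and of -0.36 and 0.31 for Igfbp6. The labels do not say what a shared number stands for.

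**Figure D3:**
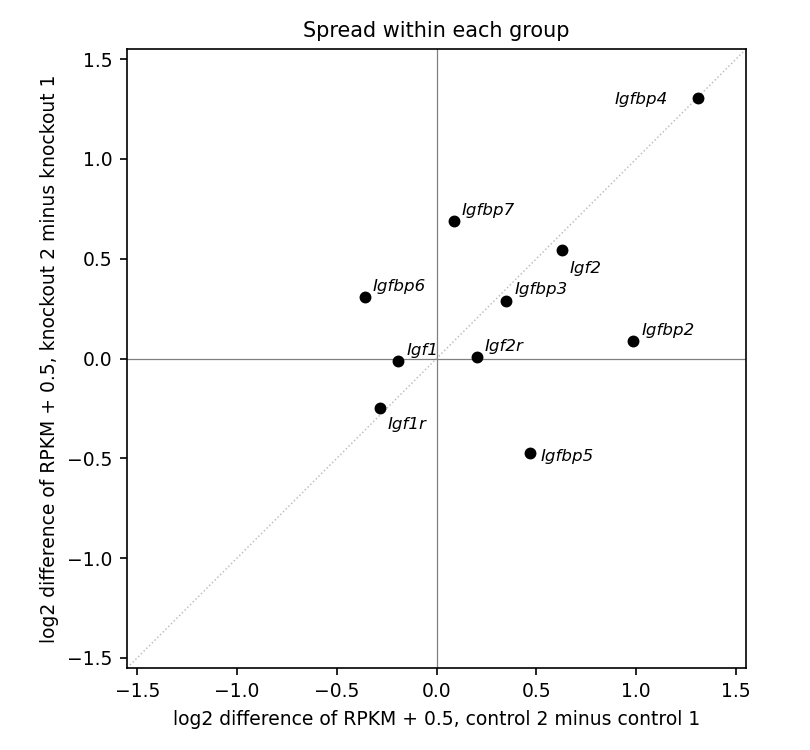
Log2 difference of RPKM + 0.5 between library 2 and library 1 within control (horizontal axis) and within knockout (vertical axis), 1 point per gene, with a dotted line where both are equal. Igfbp4 lies near the dotted line at 1.31 in both groups, and Igfbp5 and Igfbp6 lie off it with differences of opposite sign.

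In order of level per length, the control means ran from Igfbp7 (341 RPKM) through Igfbp4 (109), Igfbp5 (40.4), Igfbp6 (38.6), Igf2 (32.2), Igfbp3 (18.9), Igf2r (13.6), Igf1 (12.4) and Igf1r (7.17) to Igfbp2 (1.01 RPKM). Neighbours whose 2 control values overlapped were Igfbp5 with Igfbp6, Igfbp6 with Igf2, and Igf2r with Igf1. In knockout, Igf1 stood below Igf1r in mean (6.79 against 7.05 RPKM) with overlapping values, and Igfbp3 stood below Igf2r (9.70 against 10.5 RPKM), also overlapping. These levels depend on the exon lengths in the deposited table, such as 9904 bases for Igf1 and 1209 bases for Igfbp7.

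Within the binding proteins, the share of each gene in their summed RPKM does not depend on how a library was scaled. Igfbp7 made up 67.9% and 57.6% of it in control and 65.1% and 66.9% in knockout. Igfbp4 followed with 12.8% and 25.5% in control and 11.4% and 18.1% in knockout. Igfbp3 made up 3.39% and 3.48% in control and 2.26% and 1.78% in knockout, the only binding protein share that did not overlap between groups. In RPKM, 26.2% of all genes had both knockout values below both controls and 25.0% had both above. The Igfbp3 share restates the Igfbp3 values above and is no separate result. The shares of Igfbp5 (4.97% to 10.9%), Igfbp6 (5.53% to 10.3%) and Igfbp2 (0.105% to 0.247%) overlapped between control and knockout.

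**Figure D4:**
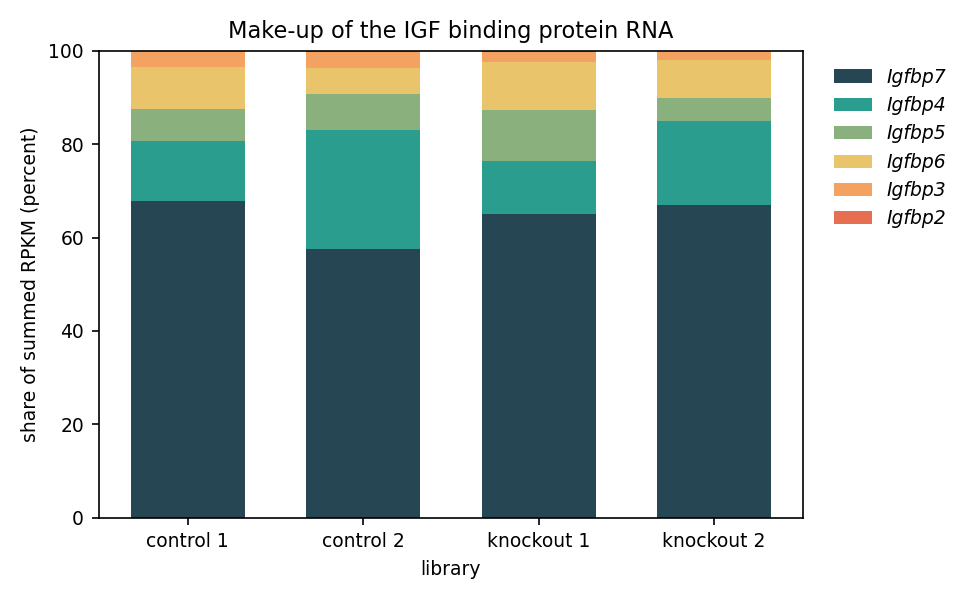
Share of each of the 6 binding proteins in their summed RPKM (percent), 1 bar per library. Igfbp7 makes up 57.6% to 67.9% of every bar, and the Igfbp3 segment is smaller in both knockout bars (2.26% and 1.78%) than in both control bars (3.39% and 3.48%).

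Markers of other cells also differed between these libraries. Of 12 markers of differentiating myocytes 11 were measured, with summed levels of 549 and 902 RPKM in the controls and 120 and 144 in the knockouts. At the threshold of the authors' deposited table, 8 of the 11 were lower, beside 4.26% of all genes. For myofibres, 12 of 16 were measured, with 190 and 788 RPKM against 74.8 and 65.3 RPKM. Without Acta1 and Tnnt3, the 2 most abundant, the rest summed to 41.2 and 263 RPKM against 34.1 and 27.6 RPKM. Beyond these 2 genes, the myofibre sum was thus high mainly in control 2. The sums of both lists were lower in knockout, as were Igf1, Igfbp3 and Igf2r. The part of these markers in the IGF values was not tested. Of 14 markers of fibro-adipogenic cells, which are known to make Igf1, 11 were measured and summed to 1664 and 1498 RPKM against 1539 and 1248 RPKM. Without Gsn and Col3a1, the 2 most abundant, the rest summed to 365 and 328 RPKM against 509 and 358 RPKM. These cells carry Sca1, which the sort selected against, yet Ly6a (Sca1) RNA was present in every library, at 47.9 to 80.7 RPKM. Pdgfra, another defining marker of theirs, was not among the genes with values, so its level is not known. The part of these cells in the Igf1 values was not tested. The list had 3 genes with knockout below control (Col1a1, Col3a1 and Gsn), 2 above (Ly6a and Cd34) and 6 that overlapped. These counts stand beside 26.2% of all genes below and 25.0% above. The list median log2 fold change was 0.05. Col1a1, the gene of a type I collagen chain, had 67.0 and 73.4 RPKM in the controls and 12.5 and 12.6 in the knockouts; it was the 1 gene of all that limma called lower (adjusted p = 0.0385), and omitting each of the 4 libraries in turn left 0 genes called lower. Ly6a had a mean 1.62-fold higher in knockout and Cd34 1.52-fold, with limma adjusted p values of 0.152 and 0.185. Dcn, the gene of decorin, had 76.6 and 48.8 RPKM against 51.1 and 83.7 RPKM. In bulk RNA, fewer cells of a type and less RNA per cell cannot be told apart.

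The endothelial markers, 12 of 12 measured, summed to 92.9 and 122 RPKM in the controls and 65.8 and 113 in the knockouts. Igfbp4 had the same order of libraries. So had the muscle stem cell marker Cdh15, with 112 and 173 RPKM against 102 and 128 RPKM. Some other muscle stem cell markers did not have this order, such as Pax7 with 8.23 and 12.9 RPKM against 9.03 and 13.1 RPKM. Both markers were picked after their values were seen. Smooth muscle and pericyte markers, 10 of 10 measured, summed to 506 and 718 RPKM against 284 and 382 RPKM. Without Acta2 and Tagln, the 2 most abundant of them, the other 8 summed to 27.6 and 28.8 RPKM against 22.3 and 44.0 RPKM. The list had 2 genes with knockout below control, 1 above (Pdgfrb) and 7 that overlapped, with a median log2 fold change of 0.06. Among all genes, 26.2% were below and 25.0% above. Tenocyte markers, 8 of 8 measured, summed to 107 and 59.6 RPKM against 43.5 and 85.7 RPKM, and Schwann cell markers, 6 of 10 measured, to 50.9 and 34.1 RPKM against 47.1 and 48.2 RPKM. Blood cell markers, 10 of 12 measured, summed to 19.6 and 19.5 RPKM against 14.0 and 22.4 RPKM, with Ptprc at or near 0 in every library. The part of any of these in the IGF values was not tested.

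Other genes of the pathway were counted in lists chosen with earlier results of these data known, and limma called 0 of their members lower or higher after adjustment over all genes. Of 7 other ligands, receptors and binding proteins 2 were measured. Igfbpl1, a gene that encodes a secreted protein with an IGFBP domain, had 2.14 and 1.53 RPKM in the controls and 0.286 and 0.431 in the knockouts. This was 5.12-fold lower between the means, with a log2 fold change of -1.44, a limma adjusted p of 0.133 and an adjusted p of 2.43e-09 in the authors' deposited table. Insr, the insulin receptor gene, had 4.32 and 3.90 RPKM against 3.63 and 5.21 RPKM.

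In the list drawn up for proteases of binding proteins and their inhibitors, 7 of 12 were measured. Both knockout values were below both control values in 5 of them, a separation that 26.2% of all genes had. With the same threshold on the adjusted p in the authors' deposited table, 2 of the 7 were lower and 0 higher, beside 4.26% and 3.59% of all genes. Adam12, a membrane protease able to cut IGFBP3 and IGFBP5, had 2.55 and 2.76 RPKM in the controls and 1.19 and 0.728 in the knockouts, with an adjusted p of 1.76e-05 in the authors' deposited table and a limma adjusted p of 0.150. The serine protease gene Prss23 had 11.8 and 13.4 RPKM against 8.74 and 6.45 RPKM. Its adjusted p was 0.0251 in the authors' deposited table and 0.194 by limma. Whether its product cuts binding proteins was not examined here. The most abundant, Htra3, had 160 and 147 RPKM against 146 and 137 RPKM. The 5 separated genes differed in size of change. Between the means they were lower by 1.08-fold (Htra1), 1.09-fold (Htra3), 1.38-fold (Stc1), 1.66-fold (Prss23) and 2.76-fold (Adam12). The fold of Stc1 came mainly from knockout 1, with 2.57 and 2.60 RPKM in the controls and 1.28 and 2.47 in the knockouts. The list median was -0.12.

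Of the Igf2 domain and Igf2 mRNA-binding protein genes, 2 of 6 were measured and neither passed a test: Igf2bp2 had 13.3 and 10.3 RPKM against 14.5 and 10.3 RPKM, whereas Nctc1, a noncoding RNA gene, had 3.17 and 4.57 RPKM against 5.24 and 3.84 RPKM. Receptor substrates and adaptors, 16 of 18 measured, had 4 genes with knockout below control, 4 above and 8 that overlapped, near the 26.2% and 25.0% of all genes, with a median of -0.02. By the adjusted p in the authors' deposited table, 1 of them was higher and 0 lower, beside 3.59% and 4.26% of all genes. The higher one was Ptpn1, the tyrosine phosphatase that acts on the insulin and IGF1 receptors, with 44.0 and 42.8 RPKM in the controls and 63.8 and 62.8 in the knockouts, an adjusted p of 0.0445 in the authors' deposited table and a limma adjusted p of 0.177. Irs2, the gene of an insulin receptor substrate, chosen after its values were seen, had 159 and 172 RPKM against 230 and 236 RPKM, with a limma adjusted p of 0.190.

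The PI3K, AKT and mTOR list had all 31 genes measured, with a median log2 fold change of -0.12, and 13 with knockout below control, 3 above and 15 that overlapped, where 26.2% of all genes were below and 25.0% above. By the adjusted p in the authors' deposited table, 1 was lower and 0 higher: Inppl1, which encodes the lipid phosphatase SHIP2, with 3.85 and 6.14 RPKM against 2.50 and 3.29 RPKM and an adjusted p of 0.0463 there. A call of 1 lower among 31 genes is near the 4.26% of all genes called lower. All 13 FoxO factors and FoxO-controlled genes were measured, with a median of -0.03 and 4 below, 2 above and 7 that overlapped. By the adjusted p in the authors' deposited table, 1 was lower and 1 higher, beside 4.26% and 3.59% of all genes. Trim63, the muscle ubiquitin ligase MuRF1, had 0.167 and 0.270 RPKM in the controls and 0.0545 and 0.0428 in the knockouts, from 11, 16, 4 and 2 reads, with an adjusted p of 0.0169 there. Klf15, a transcription factor of muscle metabolism, had 4.10 and 3.32 RPKM against 6.62 and 6.65 RPKM, with an adjusted p of 0.0212 in the authors' deposited table and 0.173 by limma. Foxo1 had 17.4 and 16.1 RPKM against 17.2 and 19.3 RPKM.

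**Figure D5:**
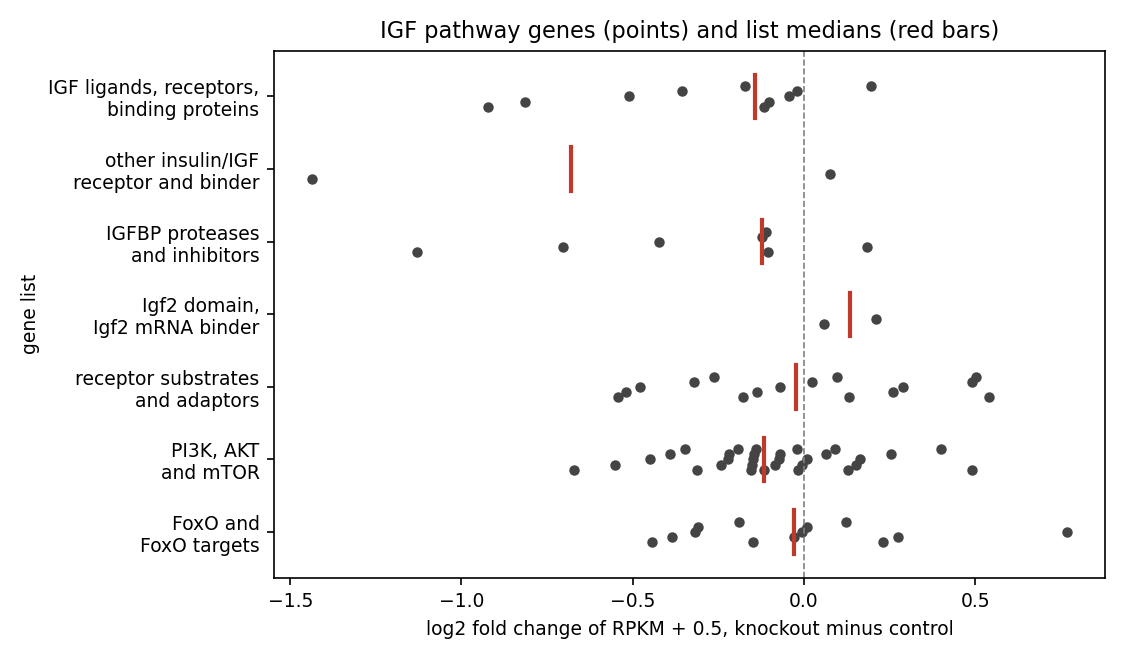
Log2 fold change of RPKM + 0.5, knockout minus control, of each measured gene (points) in the IGF family and 6 lists of related genes, with the list median as a red bar. The family median is -0.14 and the medians of the other lists with more than 2 measured genes lie between -0.12 and -0.02, and Igfbpl1 at -1.44 and Klf15 at 0.77 are the outermost points.

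The member with the smallest limma p was Igf1. Among 9998 genes with a mean of at least 1 RPKM, the 3 closest to its pattern over the 4 libraries were Tef, Eln and Schip1, by the root mean square difference of log2(RPKM + 0.5) after centring each gene. The differences were 0.03, 0.03 and 0.06 on the log2 scale. Tef, a circadian transcription factor, had 8.10 and 6.96 RPKM in the controls and 4.25 and 4.23 in the knockouts. Eln, the gene of elastin, had 3.64 and 3.22 RPKM against 1.70 and 1.82 RPKM, and Schip1 had 2.28 and 2.08 RPKM against 1.15 and 1.01 RPKM. With 4 libraries such likeness is a description, and 15 genes lay within 0.1 of the Igf1 pattern. Among the members, Igfbp3 was the closest to Igf1, at 0.23.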

How the data were processed

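RNA was sequenced from sorted muscle stem cells, in 2 control and 2 knockout libraries. Per the labels' protocols, 10 ng of total RNA was reverse transcribed with a low-input template-switching kit. Trim Galore, STAR, featureCounts (Subread) and edgeR were used on mm10 (GRCm38), per the submitters' processing notes. No source used here gives their versions or settings, or says whether counting used strand. The deposited table holds RPKM per library, a unit inferred from the values: multiplied by length, 100% came out as whole reads (tolerance 0.01 reads). Ct columns were taken as control and Fl columns as knockout. The deposited table also holds the authors' adjusted p-value per gene, from a model that no source used here describes. Lengths in the deposited table are the authors' other values.

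The main test was limma 3.58.1 (R 4.3.3) on log2(RPKM + 0.5), with the prior variance following mean level, fitted to 11603 genes, genotype as the only term, with Benjamini-Hochberg adjustment. Fold changes on this scale understate those of low genes. Replicates were taken from the labels. The fit and the recovery of reads were tested on simulated data. Genes were named by rule: all members, and in each pathway list the genes past either threshold (at most 4 per direction) or else the 2 most abundant, and the 3 genes closest to the member with the smallest p. Irs2, Insr, Htra3, Foxo1 and the markers given were chosen after their values were seen. Members, lists and alternatives were chosen with earlier results of these data known. Alternatives were other pseudocounts, scalings and filters, limma-voom on recovered reads, a replicate block and leaving out each library. Promoters came from RefSeq (GRCm38.p6), where 10 of 10 members matched.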

Additional observations from a re-analysis of the deposited data

How the results depend on the processing

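Igf1, Igf2r and Igfbp3 kept a negative log2 fold change under all 11 alternatives, with values of -1.04 to -0.72, -0.58 to -0.26 and -1.15 to -0.75. Leaving out a library turned the direction of Igf2 (0.27 without control 2, 0.23 without knockout 1), Igf1r (0.12 without control 1, 0.10 without knockout 2), Igfbp2 (0.38 without control 2), Igfbp4 (0.15 and 0.14, without control 2 or knockout 1), Igfbp5 (0.06 without control 2, 0.063 without knockout 2) and Igfbp7 (0.24 without knockout 1), and Igfbp6 had -0.039 when scaled by the reads listed. The ranges over the 4 omissions were -0.36 to 0.27 for Igf2, -0.16 to 0.12 for Igf1r, -0.61 to 0.38 for Igfbp2, -1.17 to 0.15 for Igfbp4, -0.41 to 0.063 for Igfbp5 and -0.45 to 0.24 for Igfbp7. Across all genes limma called 0 higher and 1 lower. limma-voom called 3 and 8, and leaving out 1 library gave 0 to 1 higher and 0 lower.

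With the replicate number as a block, 591 genes were called higher and 413 lower, and 3 members were lower: Igf1 (adjusted p = 0.0254), Igfbp3 (0.0160) and Igfbp4 (0.0462), which had log2 differences of -0.51 between the libraries numbered 1 and -0.51 between those numbered 2. Deviations of same-numbered libraries from their group means had a Pearson r of 0.41 over 10007 genes (genes are not replicates). The numbers are not stated to pair the samples, so these calls are not used in the report.

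List medians changed with some settings, in part by less than leaving out 1 library changed them. The list of other ligands, receptors and binding proteins had -0.998 with a pseudocount of 0.1 and -1.17 by limma-voom. Scaled by the reads listed, which moves all genes, the medians were -0.36 for proteases, -0.22 for substrates, -0.33 for PI3K, AKT and mTOR and -0.22 for FoxO. With the filter at 1 RPKM they were -0.27 for proteases, 0.014 for substrates and -0.14 for PI3K, AKT and mTOR, and substrates had 0.014 with a pseudocount of 0.1 and 0.013 by limma-voom. Leaving out 1 library gave -0.30 to -0.065 for proteases, -0.10 to -0.013 for substrates, -0.13 to -0.11 for PI3K, AKT and mTOR and -0.15 to 0.019 for FoxO. The cause was not tested. By recovered reads, which are not per length, the control and knockout shares among binding proteins were 4.86% and 3.02% for Igfbp3, 36.9% and 31.2% for Igfbp4, 19.8% and 22.6% for Igfbp5, 3.72% and 4.88% for Igfbp6, and 34.6% and 38.2% for Igfbp7. Igfbp2, with 22 to 58 reads per library, has no value under the filter at 1 RPKM.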
